A study of Mus musculus with 6 samples.

Results

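The miR-200 family was followed in small RNA libraries of purified round spermatids, the haploid germ cells that form after meiosis. Its members were taken by name from the deposited small RNA table, as every arm of miR-200a, miR-200b, miR-200c, miR-141 and miR-429. This gave 10 mature RNAs of 1900 mouse miRNA entries, and 45932 entries in all. The libraries came from 3 Miwi knockout (KO) samples, from a line with a global loss of the PIWI protein MIWI (PIWIL1), and 3 wild-type (WT) samples. All were purified from testes of C57BL/6 mice at postnatal day 21. In KO males round spermatids develop no further than step 4, per the study's description, and the labels give neither the purification method nor the steps in each library. Nothing in the labels ties the replicate numbers, 1 to 3 per genotype, to separate animals, so p-values here describe the spread among libraries, part or all of which may be technical.

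miRNAs are cut from hairpin precursors, and either arm of the hairpin, 5p or 3p, can be loaded into an Argonaute protein. Bases 2 to 8 of the loaded RNA, the seed, pair with target mRNAs. The miR-200 family is known from epithelial cells, where it represses Zeb1 and Zeb2, the transcription factors that repress E-cadherin. Zeb1 and Zeb2 repress the family's genes in turn. The family is made from a pair of loci. miR-200b and miR-429 are also needed in the pituitary of female mice for ovulation.

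The 3p arms are shown because nearly all family counts came from them and because they differ by so few bases that their seeds define the groups used here. The sequences are those of RefSeq (build GRCm38.p6), written 5′ to 3′ with the seed in capitals. Their lengths, but not their bases, could be compared with the deposited entries, and matched for 10 of 10 members.
mmu-miR-200a-3p: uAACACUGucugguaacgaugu
mmu-miR-141-3p: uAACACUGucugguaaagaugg
mmu-miR-200b-3p: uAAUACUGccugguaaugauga
mmu-miR-200c-3p: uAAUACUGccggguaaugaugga
mmu-miR-429-3p: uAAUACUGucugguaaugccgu
The first 2 share the seed AACACUG and the other 3 share AAUACUG. Among 1679 mature mouse miRNAs in the same reference no other carried either seed. Counted from 1 at the 5′ end, miR-141-3p and miR-200a-3p differ at 2 of 22 positions, A17C and G22U, with the base of miR-141-3p first. miR-200b-3p and miR-200c-3p differ at 2 of 22 positions, U11G and A22G, with the base of miR-200b-3p first. How reads that match several members were assigned is not given in the sources used here, so the split within each of these pairs is uncertain.

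The hairpins Mir429, Mir200a and Mir200b lie on the minus strand at chr4:156053905-156055750 (GRCm38), within 1846 bp. GENCODE vM21 places all 3 in introns of the coding gene Ttll10, and Mir429 also in an exon of the noncoding gene Gm13648. Mir141 and Mir200c lie on the minus strand at chr6:124717914-124718390, within 477 bp. This locus is in an intron of the noncoding gene Gm15884, and Mir141 also overlaps an exon of the annotated gene Gm29008. The nearest coding gene, Phb2, is 964 bp from Mir141.

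The table held 747443 to 1335013 counts in the KO libraries and 3114845 to 5037232 in the WT libraries, and its miRNA total was 146487 to 243655 in KO and 179761 to 246030 in WT. Levels below, written CPM, are counts in every 1000000 miRNA counts of the same library unless another scale is named. A single count was worth 4.10 to 6.83 CPM in KO and 4.06 to 5.56 in WT, so the family was measured with few reads. The meiotic and postmeiotic germ cell miRNAs miR-34b-5p, miR-34c-5p and miR-449a-5p together made up 295733 to 335101 CPM in KO and 274373 to 291093 in WT. These miRNAs are shared by meiotic and postmeiotic cells, so they do not tell round spermatids from spermatocytes. The most abundant miRNA, miR-34b-5p, had a mean 1802 times that of miR-200a-3p, the highest member of the family.

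The family as a whole was scarce, and its levels in the genotypes overlapped. All arms together had 98, 59 and 75 counts in KO replicates 1 to 3, against 57, 82 and 115 counts in WT replicates 1 to 3. In CPM these were 417, 403 and 308 in KO and 317, 418 and 467 in WT. The lowest library was KO replicate 3 and the highest WT replicate 3. The mean was 376 ± 59.5 in KO and 401 ± 76.7 in WT (SD, n = 3 each), a ratio of 0.938 of KO over WT. The 95% Clopper-Pearson intervals of the single libraries, which cover counting error only, ran from 242 to 386 in KO replicate 3 and from 386 to 561 in WT replicate 3. This pair was picked as the lowest and highest library, and the interval of every other library overlapped both. No test was run on this sum. In bulk samples, fewer cells of a type and less RNA per cell cannot be told apart.

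Of 10 members, the 5 with enough counts to be tested were the 3p arms. None of these 5 passed in KO against WT when libraries were scaled to their miRNA total (edgeR quasi-likelihood test, Benjamini-Hochberg adjustment over 24682 RNAs, adjusted p under 0.05). The count at an unadjusted p under 0.05 was 0, and DESeq2 with the same scaling also called 0. On this scale 8.33% of the 348 tested miRNAs were higher in KO and 13.8% lower, 22.1% in all, and 83.0% of all tested RNAs passed. With so many passing, the adjustment changed p-values little, for miR-200a-3p from 0.0910 to 0.106 (edgeR). Among the miRNAs alone the share of false calls may therefore exceed 0.05. The median log2 change was -0.06 for the 5 members and -0.11 for the 348 miRNAs. Of the 5 estimates 2 were above 0 and 3 below.

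miR-200b-3p, made from the chromosome 4 locus, represses Zeb1 and Zeb2 through the AAUACUG seed. It held 23, 17 and 17 counts in KO replicates 1 to 3, against 7, 23 and 31 in the WT libraries. WT replicate 1 was the lowest library and the KO libraries lay inside the range of WT. The mean was 94.6 ± 23.3 in KO and 94.1 ± 48.0 in WT (SD, n = 3 each). The log2 change, -0.06 ± 0.37 (SE), did not pass (edgeR adjusted p = 0.890). The 95% interval ran from -0.82 to 0.70 on the log2 scale. The sign of so small a value depended on single libraries, and without WT replicate 3 it was 0.21.

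miR-200a-3p, from the same transcript, carries the other seed and is known to repress the stress kinase p38α (Mapk14) as well as the Zeb genes. It held 27, 12 and 18 counts in KO replicates 1 to 3, against 18, 31 and 36 in the WT libraries. In CPM these were 115, 81.9 and 73.9 in KO and 100.1, 158 and 146 in WT. KO replicate 1 lay above WT replicate 1, so the genotypes overlapped. The mean was 90.3 ± 21.8 in KO and 135 ± 30.7 in WT (SD, n = 3 each). The log2 change of -0.58 ± 0.33 did not pass (SE, edgeR adjusted p = 0.106), with an interval from -1.25 to 0.10.

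miR-429-3p, the lowest 3p arm of the chromosome 4 locus, shares its seed with miR-200b-3p. It held 6, 5 and 9 counts in KO replicates 1 to 3, against 8, 13 and 9 in the WT libraries. At 36.9 CPM KO replicate 3 was level with WT replicate 3 at 36.6, and the other libraries were lower in KO than in WT. The mean was 32.2 ± 5.93 in KO and 49.1 ± 15.4 in WT (SD, n = 3 each). The log2 change of -0.59 ± 0.43 had an interval from -1.47 to 0.29 (SE, edgeR adjusted p = 0.205).

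miR-200c-3p, from the chromosome 6 locus, is known to repress Zeb1 and the polycomb gene Bmi1. It held 14, 13 and 11 counts in KO replicates 1 to 3, against 4, 8 and 21 in the WT libraries. The WT libraries spread widely, with 22.3 CPM in replicate 1 and 85.4 in replicate 3. The mean was 64.5 ± 22.2 in KO and 49.5 ± 32.4 in WT (SD, n = 3 each). The log2 change, 0.25 ± 0.43 (SE), did not pass (edgeR adjusted p = 0.595). The estimate moved with single libraries. It was 0.0065 without KO replicate 2 and -0.06 without WT replicate 1. It was 0.93 without WT replicate 3 (edgeR adjusted p = 0.0770), and without both replicate 3 libraries miR-200c-3p rose by 1.14 and passed (edgeR adjusted p = 0.0340).

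miR-141-3p, from the same locus, shares its seed and the p38α target with miR-200a-3p. It held 25, 9 and 19 counts in KO replicates 1 to 3, against 19, 7 and 17 in the WT libraries. Replicate 2 was the lowest library in each genotype, at 61.4 CPM in KO and 35.7 in WT. The mean was 82.0 ± 22.8 in KO and 70.2 ± 35.0 in WT (SD, n = 3 each). The log2 change of 0.27 ± 0.39 had an interval from -0.51 to 1.05 (SE, edgeR adjusted p = 0.520), and it was -0.03 without WT replicate 2.

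**Figure D1:**
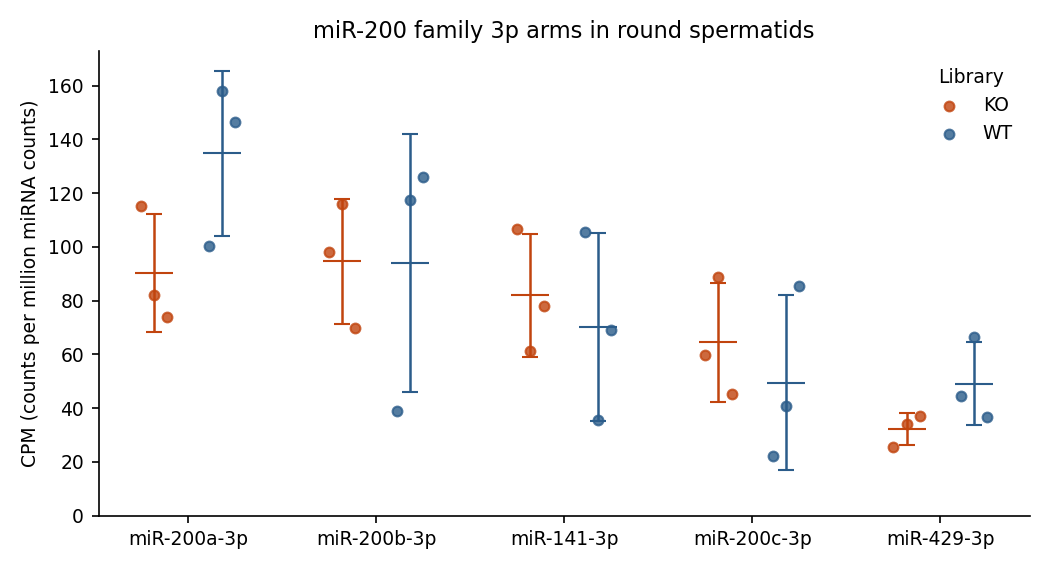
Levels in CPM of the 5 tested 3p arms (y axis) in each KO and WT library. Points are libraries, and horizontal marks with bars are the mean ± SD of 3 libraries. The genotypes overlap for each of the 5 members, from miR-200a-3p, with means of 90.3 in KO and 135 in WT, to miR-429-3p, with means of 32.2 in KO and 49.1 in WT.

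Over all libraries the members ranked miR-200a-3p, miR-200b-3p, miR-141-3p, miR-200c-3p and miR-429-3p, with means of 113, 94.3, 76.1, 57.0 and 40.7 CPM. The mature RNAs are 22 or 23 nt long, so no length scaling was applied. Counts of different sequences also depend on how well each is captured in the library. Neighbours in this order did not differ beyond their spread, while miR-200a-3p was above miR-429-3p in each of the 6 libraries. The spread between libraries was near that of counting alone for miR-200a-3p in KO, with an SD of 21.8 against 21.4 for Poisson counts. In WT it was larger than counting for miR-200b-3p, at 48.0 against 21.5, for miR-141-3p, at 35.0 against 18.6, and for miR-200c-3p, at 32.4 against 15.6.

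The intervals show what these depths could resolve. With libraries scaled to the miRNA total, the interval for miR-200a-3p in KO was 0.421 to 1.07 times the WT level. For miR-200b-3p it was 0.568 to 1.63 times. The upper bounds for miR-141-3p and miR-200c-3p were 2.07 and 2.16 times, and the lower bound for miR-429-3p was 0.362 times. Equal levels lie inside each interval, and so do changes up to its bounds. The missing calls therefore do not show that KO and WT levels were alike. Other miRNAs of the same depth did pass. Of 88 miRNAs with means inside the range of the 5 members, 6 were higher and 11 lower in KO, 19.3% in all, with a median SE of 0.39 on the log2 scale, the same as for the members. The smallest change among those that passed was 0.77 in size.

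miR-200a-3p stood at rank 241 of the miRNAs by mean level. The miRNAs just above it, miR-210-3p, miR-669c-3p and miR-3470a, had log2 changes of -0.64, 0.32 and -0.30 and did not pass. Of those just below it, miR-324-3p fell by 1.08 (edgeR adjusted p = 0.00327) and miR-362-3p fell by 0.77 (edgeR adjusted p = 0.0368). The call of miR-362-3p was lost on leaving out KO replicate 1 (edgeR adjusted p = 0.107), KO replicate 3 (0.159) or WT replicate 3 (0.109). With neither replicate 3 library it had a log2 change of -0.44 (edgeR adjusted p = 0.300), and with TMM factors of the miRNAs alone it did not pass either (edgeR adjusted p = 0.0587). The third, miR-7230-5p, had a log2 change of -0.54 and did not pass. With whole-table TMM factors all 6 of these neighbours rose instead.

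**Figure D2:**
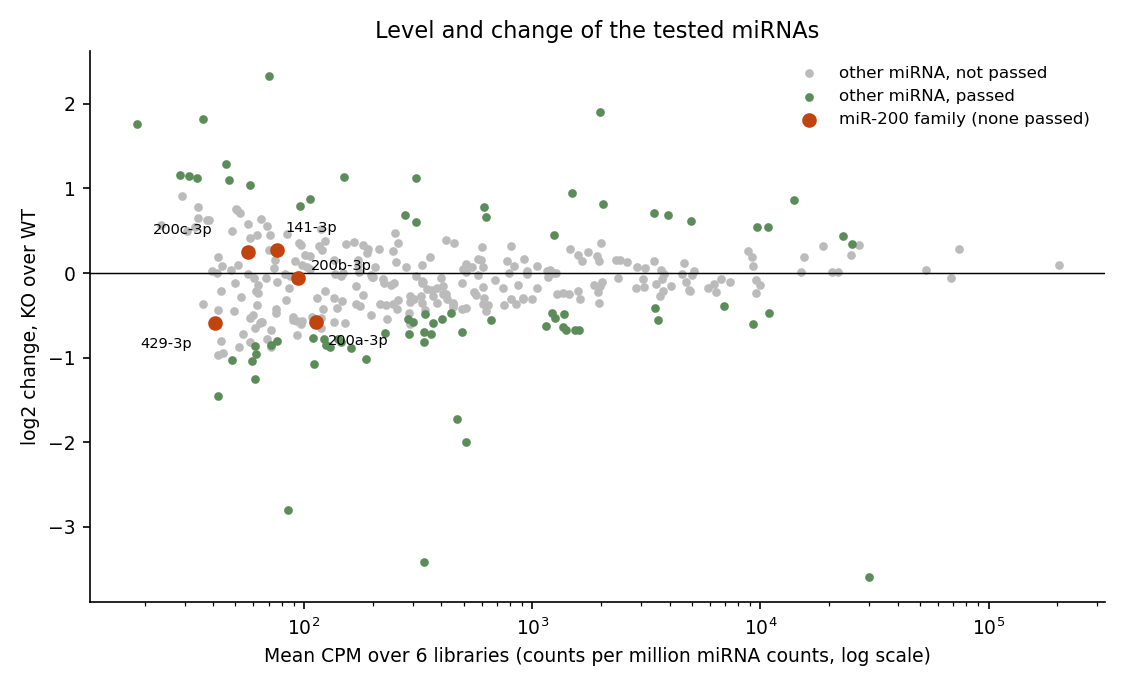
Mean level over 6 libraries (x axis, CPM, log scale) and log2 change of KO over WT with libraries scaled to the miRNA total (y axis) of the 348 tested miRNAs. The 5 members of the miR-200 family lie at low levels, between 40.7 and 113 CPM, with changes between -0.59 and 0.27, and did not pass, while 77 of the 348 miRNAs passed.

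Scaled to the whole small RNA table, all 5 tested members rose in KO, as did 97.1% of the 348 miRNAs. miRNAs made up 18.1% to 19.6% of the table in KO libraries and 4.88% to 5.96% in WT libraries, and the change of scale moved the median log2 change of the miRNAs by 1.92. Out of all counts of the table the family had 75.8, 78.9 and 56.2 per 1000000 in KO replicates 1 to 3, against 18.3, 24.9 and 22.8 in WT replicates 1 to 3, without overlap. On this scale 94.8% of the 348 miRNAs had each KO library above each WT library. With whole-table TMM factors, which set the bulk of the table to no change, miR-141-3p and miR-200c-3p rose by 2.20 and 2.17 on the log2 scale (edgeR adjusted p = 9.33e-07 and 6.12e-06). miR-200b-3p rose by 1.87 (edgeR adjusted p = 5.96e-06). miR-200a-3p and miR-429-3p rose by 1.35 and 1.33 (edgeR adjusted p = 0.000137 and 0.00718), below the median of 1.81 over the miRNAs.

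**Figure D3:**
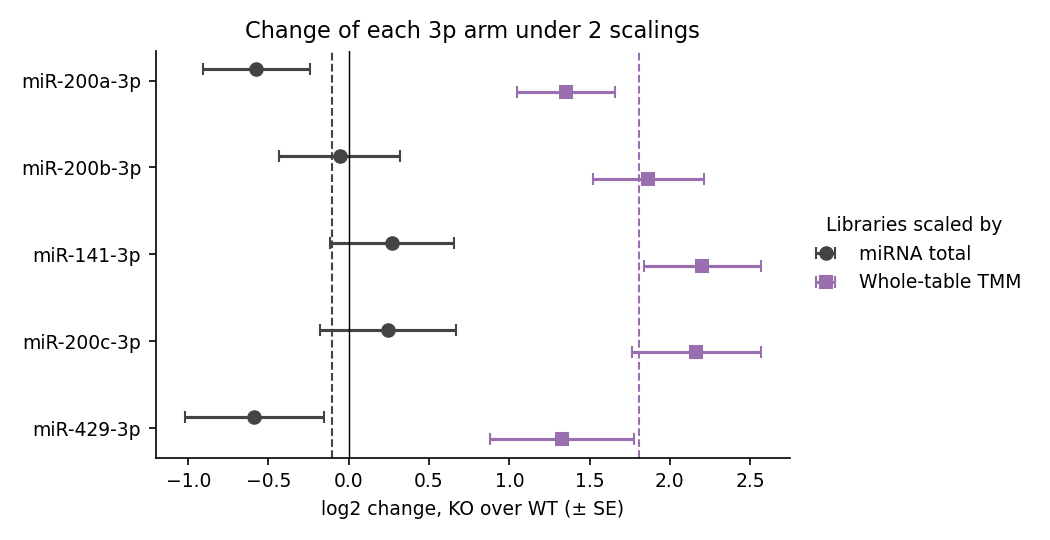
log2 change of KO over WT with its SE (x axis) for each tested 3p arm, with libraries scaled to the miRNA total (circles) or by whole-table TMM factors (squares). Dashed lines are the medians of the 348 tested miRNAs, -0.11 and 1.81, and the members lie around the line of their own scaling.

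The make-up of the family overlapped between the genotypes as well, and it was not tested. The Mir200c/Mir141 locus gave 40.8%, 39.0% and 40.0% of family counts in KO replicates 1 to 3, against 42.1%, 18.3% and 33.9% in WT replicates 1 to 3. WT replicate 2 stood low, with 15 of 82 counts (95% Clopper-Pearson interval 10.6% to 28.4%), and the genotypes overlapped. The mean was 39.9% ± 0.918 in KO and 31.4% ± 12.1 in WT (SD, n = 3 each), a difference of 8.50 percentage points, which was 1.92 points without WT replicate 2 and 13.8 points without WT replicate 1. In levels, the chromosome 6 locus gave 150 ± 24.4 CPM in KO and 123 ± 42.0 in WT, and the chromosome 4 locus gave 226 ± 35.6 in KO and 278 ± 83.5 in WT (SD, n = 3 each).

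By seed, miR-200a and miR-141, with AACACUG, made up 54.7%, 37.5% and 50% of the 3p counts in KO replicates 1 to 3, against 66.1%, 46.3% and 46.5% in WT replicates 1 to 3. KO replicate 2 was lowest and WT replicate 1 highest, and the genotypes overlapped. The mean was 47.4% ± 8.91 in KO and 53.0% ± 11.3 in WT (SD, n = 3 each). The difference of -5.56 points was 1.00 point without WT replicate 1 and -0.60 points without KO replicate 2. The AAUACUG group stood at 191 ± 44.1 CPM in KO and 193 ± 76.3 in WT, and the AACACUG group had a mean of 172 ± 42.9 in KO and of 205 ± 10.8 in WT (SD, n = 3 each).

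**Figure D4:**
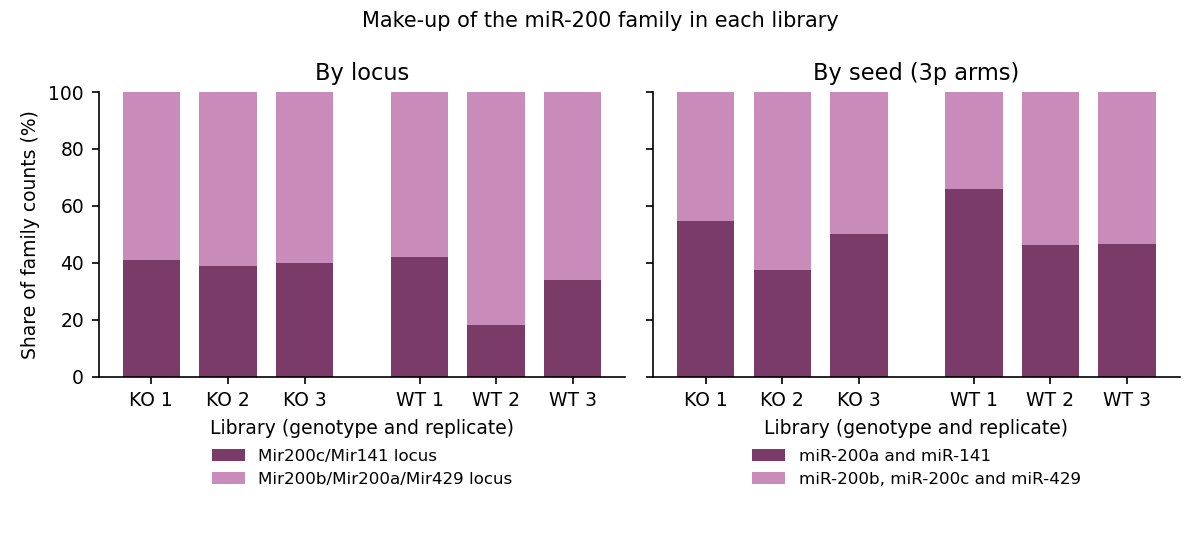
Share of family counts (y axis, percent) by locus of origin (left) and share of 3p counts by seed (right) in each library, KO and then WT. The Mir200c/Mir141 locus gave 39.0% to 40.8% in KO and 18.3% to 42.1% in WT.

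The 5p arms, usually the degraded strand of these hairpins, were close to absent. Their summed counts were 3, 3 and 1 in KO replicates 1 to 3, against 1, 0 and 1 in WT replicates 1 to 3. As shares of family counts these were 3.06%, 5.08% and 1.33% in KO, and 1.75%, 0% and 0.870% in WT, where a count of 0 of 82 allows a share of up to 3.66%. miR-200b-5p accounted for 5 of the 7 counts in KO, with 2, 2 and 1 counts, and had 0 in each WT library. Each of these counts is at or under the 3 counts that a count of 0 allows, so a difference was not detectable at this depth. miR-141-5p had 2 counts in KO and 1 in WT, miR-200c-5p had 0 and 1, and miR-200a-5p and miR-429-5p had 0 in all 6 libraries.

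Other miRNAs known from epithelia were measured beside the family, as a list of 10 of which 8 could be tested. Of these 8, 1 rose, 1 fell and 6 did not pass, with a median log2 change of -0.28, beside 8.33% higher, 13.8% lower and a median of -0.11 over the 348 miRNAs. With whole-table TMM factors all 8 rose, as did 97.1% of the 348. miR-375-3p, known from endocrine cells and gut epithelium, had 3020, 2758 and 2085 CPM in KO replicates 1 to 3, against 1346, 1199 and 1902 in WT replicates 1 to 3. Its KO libraries were all above the WT libraries, as for 12.1% of the 348 miRNAs, and it rose by 0.82 ± 0.19 on the log2 scale (SE, edgeR adjusted p = 0.000186). miR-96-5p, of a cluster known from sensory cells, had 38.3, 41.0 and 49.2 CPM in KO and 89.0, 76.5 and 73.2 in WT. It fell by 0.87 on the log2 scale (edgeR adjusted p = 0.0359), a call that was lost when replicate 1 or 2 of either genotype was left out (edgeR adjusted p of 0.0622 to 0.101). It was also lost with TMM factors of the miRNAs alone (edgeR adjusted p = 0.0572).

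The cluster partners of miR-96-5p, miR-183-5p and miR-182-5p, had log2 changes of -0.21 and -0.60 and did not pass. miR-203-3p, which promotes differentiation of skin, and miR-31-5p had log2 changes of -0.38 and -0.36 that did not pass (edgeR adjusted p = 0.0737 and 0.0535), although each lay lower in the KO libraries without overlap. On this scale 22.4% of the 348 miRNAs had all KO libraries below all WT libraries. miR-192-5p and miR-194-5p, known from gut, liver and kidney, had log2 changes of -0.19 and 0.28 and did not pass. miR-205-5p, a miRNA of basal epithelium, was not tested, with counts of 9, 0 and 7 in KO against 4, 2 and 3 in WT, and miR-215-5p had 0 in all 6 libraries. The list as a whole summed to 5184 to 6194 CPM in KO and 5076 to 5723 in WT, which overlapped.

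miRNAs listed for other cells of the testis were counted in these libraries, and which cells they came from was not tested. The mesenchymal and peritubular list summed to 23531 to 29172 CPM in KO and 30006 to 40877 in WT, without overlap. Of the 348 single miRNAs 22.4% lay likewise below WT. Of its 9 members 0 rose and 6 fell, with a median log2 change of -0.60, beside 13.8% lower and a median of -0.11 over the 348 miRNAs. With whole-table TMM factors all 9 rose, as did 97.1% of the 348. The members with the highest levels, miR-145a-5p and miR-143-3p, fell by 0.47 and 0.60 on the log2 scale (edgeR adjusted p = 0.0216 and 0.000869). The call of miR-145a-5p was lost on leaving out KO replicate 1 (edgeR adjusted p = 0.110), KO replicate 2 (0.152) or WT replicate 3 (0.237), with a log2 change of -0.21 in this last case, and with TMM factors of the miRNAs alone (0.0934). The erythroid list summed to 36.9 to 47.8 CPM in KO and 83.4 to 128 in WT. Its 1 tested member, miR-451a, fell by 1.25 on the log2 scale (edgeR adjusted p = 0.00427) but was 0.67 with whole-table TMM factors, where it did not pass (edgeR adjusted p = 0.126). miR-144-3p averaged 4.16 CPM in KO and 17.1 in WT. miR-144-5p had 0 counts in each KO library and 1 in each WT library, so a difference was not detectable. The endothelial list, with miR-126a-3p at -0.07 and miR-126a-5p at 0.15, and the gonadal list, with miR-202-5p at -0.15 and miR-202-3p at -0.25, had 0 of 2 members each that passed. Of 5 leukocyte miRNAs 1 rose, miR-155-5p at 1.29 (edgeR adjusted p = 0.00673, and 0.0538 without WT replicate 3). Over the 348 miRNAs 8.33% were higher. Those with the highest levels, miR-223-3p at 0.32 and miR-142a-3p at -0.0016, did not pass. miR-150-5p at 0.38 and miR-142a-5p at 0.28 did not pass either. Each KO library lay above each WT library for miR-223-3p, miR-150-5p and miR-155-5p, as for 12.1% of the 348 miRNAs. For miR-142a-3p and miR-142a-5p the genotypes overlapped. Of the 3 germ cell miRNAs, miR-449a-5p rose by 0.44 (edgeR adjusted p = 0.0111, but 0.0574 without KO replicate 2 and 0.0627 without WT replicate 1), and miR-34b-5p and miR-34c-5p, at 0.10 and 0.28, did not pass. The sum of the 3 germ cell miRNAs lay higher in KO without overlap, as did 12.1% of the 348 single miRNAs. With whole-table TMM factors each tested member of the endothelial, gonadal, leukocyte and germ cell lists rose, as did nearly all miRNAs. Whether other cells were in the fraction, or contributed the family's reads, was not tested.

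By pattern over the 6 libraries, the miRNAs most like the family sum were miR-672-5p, miR-471-5p, miR-1839-5p, miR-202-3p and miR-468-3p. Likeness was the root mean square difference of log2 levels, each centred on its own mean, among 313 miRNAs with a mean of at least 50 CPM. It was 0.0865 for miR-672-5p and 0.136 for miR-468-3p, against a median of 0.325 over the 313. The 5 were picked over these same libraries, so log2 changes in KO near that of the family follow from the choice. Those changes ranged from -0.27 to 0.01, and 0 of 5 passed. All of these values share the same miRNA totals.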

How the data were processed

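The values deposited by the authors are raw counts of reads for each reference RNA, from featureCounts v1.5.0-p2 per the file headers. The submitters' processing notes also name cutadapt, DESeq2 and build mm9. The aligner is not given in the sources used here. Extraction used mirVana reagents and library preparation the Ion Total RNA-Seq v2 reagents, per the labels' protocols. Lengths in the table exceed those of the RNAs by 20 nt, and 10 of 10 member lengths matched RefSeq after subtraction. The deposited table of cluster piRNA counts was not used here.

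All 24682 RNAs passing filterByExpr (minimum count 10, minimum total 15) were fitted with edgeR 4.0.16 (R 4.3.3), library sizes set to the miRNA totals, without a block. Tests were two-sided. SEs and 95% intervals came from the F statistic. DESeq2 1.42.0 was an alternative. On simulated data the test recovered 23.9% of 1.5-fold, 67.2% of 2-fold and 89.4% of 4-fold changes placed in miRNAs. It made 5 false calls among 25403 RNAs. Unlike these data, the simulation gave all RNAs the same dispersion and had no shift of the other RNAs against the miRNAs. The altered miRNAs were drawn from all tested miRNAs, with a median level of 291 CPM, above the highest member at 113. Recovery at the level of the members was not measured. Low member counts, 4 to 36 per library for the 3p arms, limit precision. Members, lists and tests were chosen with earlier results of these data known. Each member is named, with the epithelial list, the 2 highest members of other lists, 3 miRNAs either side of the highest member, and the 5 miRNAs most like the family sum. Naming miR-155-5p, miR-150-5p, miR-142a-5p, miR-451a with its partners, and miR-449a-5p was decided after their values were seen. miRNA counts of replicate pairs differed beyond sampling noise (chi-square per degree of freedom 4.44 to 12.8).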

Additional observations from a re-analysis of the deposited data

How the results depend on the processing

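Of 5 tested members 0 passed under 11 of 15 alternatives, with each library left out in turn among them (0 to 0). All 5 passed with whole-table TMM factors, with table library size and with DESeq2's own size factors, which rest on the table and not on the miRNAs, and 1, miR-200c-3p at 1.14, without both replicate 3 libraries. Under these 3 scalings in that order, the log2 change was 1.35, 1.18 and 1.31 for miR-200a-3p, 1.87, 1.69 and 1.87 for miR-200b-3p, and 1.33, 1.15 and 1.27 for miR-429-3p, opposite in sign to the miRNA scaling. The family sum had a log2 change of -0.09, which was 1.84 with whole-table TMM factors and 1.67 with table library size. The change of miR-200b-3p, -0.06, was also 0.0235 with TMM factors of the miRNAs and 0.40 without both replicate 3 libraries. With single libraries left out, log2 changes ran from -0.39 to 0.21 for miR-200b-3p, -0.0612 to 0.93 for miR-200c-3p, -0.0347 to 0.64 for miR-141-3p, -0.81 to -0.43 for miR-200a-3p and -0.79 to -0.32 for miR-429-3p. The family sum then ran from -0.24 to 0.03, the Mir200c/Mir141 share difference from 1.92 to 13.8 points, the seed share difference from -9.22 to 1.00 points and the 5p share difference from 1.32 to 3.20 points. Replicate numbers were not taken to pair the samples: same-numbered libraries had correlations of deviations of 0.0257, 0.0825 and 0.117 over all tested RNAs. Each library correlated best with its own number there. Over the miRNAs this also held for replicates 2 and 3, at 0.196 and 0.110. KO replicate 1, however, had its lowest correlation over the miRNAs, -0.0429, with WT replicate 1. The replicate block called 0 of 5 members and 91 miRNAs, against 77 without it, and gave 0.0166 for miR-200b-3p. For the other sign changes the cause was not tested. Leaving out libraries for the miRNAs of the other lists was decided after the data were seen.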
